A study of Homo sapiens with 2 samples.

Results

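Edit sites at 7 genes that encode subunits of protein phosphatase 2A (PP2A) were examined in 2 long-read libraries. The genes were PPP2CA, PPP2CB, PPP2R1A, PPP2R1B, PPP2R2A, PPP2R5C and PPP2R5E, 7 of the 12178 genes listed in either library. Each was found as the gene model of the deposited isoform annotation whose exons overlapped the GENCODE gene most on the same strand, and each corresponded to 1 model. All listed positions of those models were taken. The family was chosen by a rule into which measured values of these tables had entered, without saying which. The site counts of its genes in both libraries are therefore taken as used by the choice and are given as a description, with no test.

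PP2A is a major serine/threonine phosphatase of animal cells. Its core is a catalytic C subunit held by a scaffolding A subunit, and an exchangeable regulatory B subunit sets where the enzyme acts and on what. The C subunit is encoded by PPP2CA or PPP2CB, the A subunit by PPP2R1A or PPP2R1B, and regulatory subunits by several gene families, among them the B55 family with PPP2R2A and the B56 family with PPP2R5C and PPP2R5E.

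HEK293T cells, a human embryonic kidney line that the labels also give as HEK293XT, were fixed in methanol. In both groups a purified fusion protein was applied that joins APOBEC1, an enzyme that converts cytosine to uracil, to a nanobody against rabbit IgG. In the RBFOX2 group an antibody against RBFOX2, a splicing regulator that binds UGCAUG, brought the fusion to RNA bound by RBFOX2. The enzyme-only group received the fusion but not the antibody and measures the background of the enzyme. It is called the control below. There was 1 library in each group, so every comparison is between these 2 libraries and has no replicate check. Reads carried no molecular identifiers in these tables, and all intervals are exact Clopper-Pearson 95% intervals that cover counting error only. The limit given beside a count of 0 is 3 counts of the total.

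The RBFOX2 library listed 121930 sites and the enzyme-only library 103684. Sites found in only 1 of the libraries numbered 109357 and 91111, and these are called unshared sites. The reads of the listed genes summed to 2431345 and 2233600. A site was listed only where its converted reads exceeded 0.002 of the reads of its whole gene. A gene with few reads could therefore list a site with 1 converted read, while the PPP2CA and PPP2R1A models needed 3 converted reads in each library.

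The PPP2CA model also held the neighbouring gene SKP1. SKP1, an adaptor of the SCF ubiquitin ligase, lies next to PPP2CA on the minus strand of chromosome 5, and the deposited annotation had joined both into 1 gene model of 53 isoforms. Of these, 31 covered PPP2CA exons, 21 covered SKP1 exons and 1 covered exons of both genes. The reads of the model, 1387 with the RBFOX2 antibody and 1260 in the control, therefore came from both genes. Edit fractions at either gene are shares of that sum and are lower than a share of the reads of that gene alone would be. Sites were assigned to PPP2CA or SKP1 by their position in GENCODE, and the main PPP2CA values are given for the joined model and for the PPP2CA exons alone.

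The following stretches of hg38 are shown because they hold UGCAUG hexamers with listed sites in the RBFOX2 library, and the sites with the most converted reads at the PPP2CA model. They are written as RNA, 5′ to 3′, and capitals mark UGCAUG and the cytosines listed in the RBFOX2 library. The first lies in the 3'UTR of PPP2CA (chr5:134197551-134197580, minus strand), and the second in its coding exon 2 (chr5:134206039-134206068, minus strand). The next pair lies in the 3'UTR of SKP1 (chr5:134157573-134157602 and chr5:134157543-134157572, minus strand). Then follows a 3'UTR stretch of PPP2CA with no UGCAUG within 50 nt of its site (chr5:134197313-134197342, minus strand). The last lies in the 3'UTR of PPP2R1A (chr19:52226079-52226108, plus strand).
PPP2CA 3'UTR, hexamer: aaCcaguucauUGCAUGcugaagcgaCauu
PPP2CA coding exon 2, hexamer: ggagaugUGCAUGggcaauuuCaugaucuC
SKP1 3'UTR, hexamer: uuguccuCauUGCAUGuguaguuugagcaC
SKP1 3'UTR, strongest site: agaucccaaaccuuaCggccaaguuucuuc
PPP2CA 3'UTR, site without hexamer: aaggccucccuucuaCuugugaguuuugaa
PPP2R1A 3'UTR, hexamer: ccugUGCAUGgucugaccccaggccccuuC

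PPP2CA (hg38 chr5:134194035-134226073, minus strand) encodes the alpha form of the catalytic subunit, the more abundant of the pair in most tissues. The PPP2CA model listed 56 sites with the RBFOX2 antibody and 5 in the control, at 1387 and 1260 reads. Of these, 4 sites were listed in both libraries, which left 52 unshared sites against 1. Scaled by the library totals and with a pseudocount of 0.5, the log2 ratio of unshared sites (RBFOX2 over enzyme-only) was 4.87 (interval 2.90 to 10.77). The reads of the joined model differed by a factor of 1.10, and the reads of PPP2CA alone are not known. Among the 3604 genes with at least 20 unshared sites, this ratio of the joined model ranked 6 from the top.

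The PPP2CA exons alone gave the same picture. They held 44 sites in the RBFOX2 library, 40 of them unshared, and 4 sites in the control, all 4 of which were also listed in the RBFOX2 library. With 3 sites put in place of the control count of 0, the scaled ratio of the unshared sites of the PPP2CA exons was 11.1. The exact interval of their log2 ratio began at 3.11. All listed sites, 44 and 4, gave a scaled ratio of 9.35. The converted reads of all listed sites in these exons summed to 175 and 13. The SKP1 exons held 12 sites and 58 converted reads with the RBFOX2 antibody and 1 site with 3 converted reads in the control, with no site in common.

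**Figure D1:**
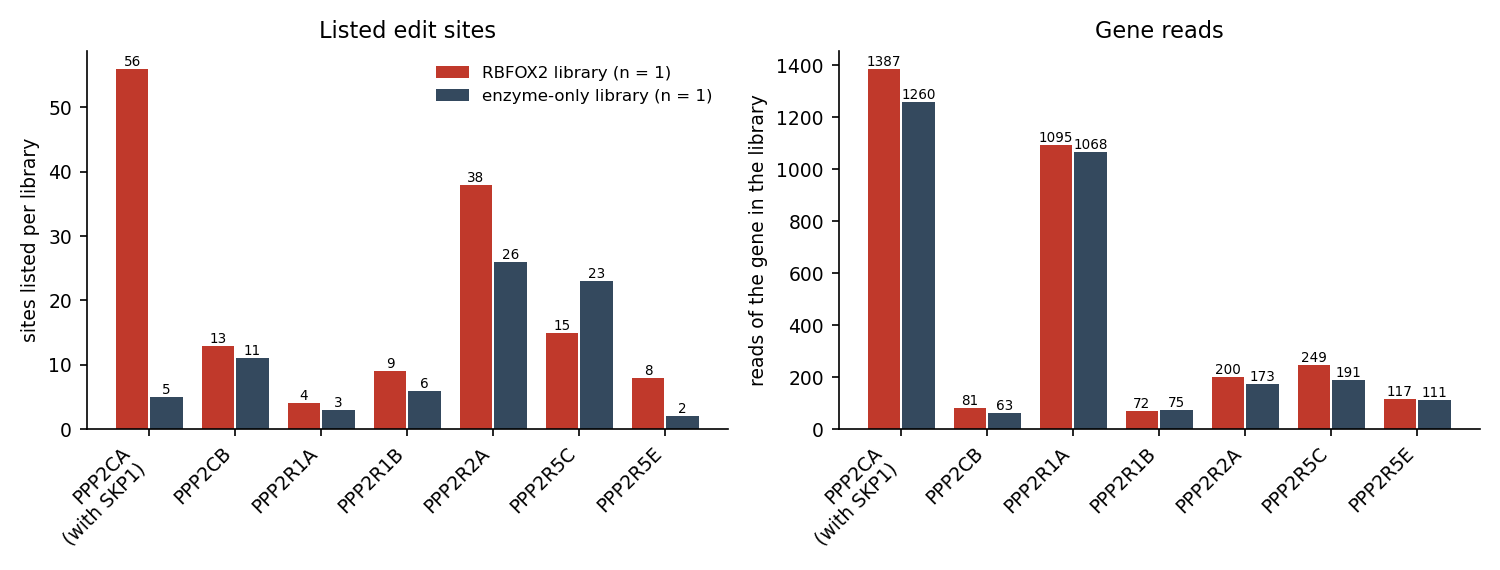
Sites listed per gene (left, number of sites) and reads of the gene (right, number of reads) in the RBFOX2 library (red) and the enzyme-only library (blue), 1 library each. The PPP2CA model with SKP1 had 56 sites against 5 at 1387 and 1260 reads, while PPP2R1A, at 1095 and 1068 reads, had 4 against 3.

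The strongest site at the model lay in SKP1 and the next strongest in PPP2CA, each near a UGCAUG. In the SKP1 3'UTR, position 134157557 had 20 converted reads, or 1.44% of the reads of the model (interval 0.883 to 2.22), and lay 30 nt downstream of the hexamer. In the PPP2CA 3'UTR, position 134197554 had 13 converted reads, or 0.937% (interval 0.49998 to 1.60), and lay 10 nt downstream of the hexamer. Neither was listed in the enzyme-only library. If the listing minimum is the only reason for that, at most 2 of 1260 reads were converted there, or 0.159%, with an upper limit of 0.572%. The interval of the SKP1 site lay above this limit, while that of the PPP2CA site began below it.

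Further sites surrounded both hexamers. Around the 3'UTR hexamer of PPP2CA, 6 sites lay within 50 nt and held 33 converted reads, 3 sites upstream (at 9, 39 and 44 nt, with 4, 5 and 5 reads) and 3 downstream (at 10, 27 and 34 nt, with 13, 3 and 3 reads). Around the hexamer in coding exon 2, position 134206047 with 3 reads lay 9 nt downstream and position 134206039 with 5 reads 17 nt downstream. Around the SKP1 hexamer, 3 sites held 28 reads in all. No enzyme-only site of any of the 7 genes lay within 50 nt of a UGCAUG.

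Most PPP2CA sites lay outside these windows. The site with the third most reads, position 134197327 in the 3'UTR with 8 converted reads (0.577%), had no UGCAUG within 200 nt. The next were position 134197807 in the last coding exon and position 134201947 in coding exon 3, with 6 reads each (0.433%). Of the 44 sites, 24 had exactly 3 converted reads, the least that could be listed, and 20 had more.

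The 44 sites formed a band along the messenger RNA that began in exon 2 and ended in the proximal 3'UTR. On the canonical transcript of 4582 nt, the first site lay at nt 399 and the last at nt 1771, with a median of 23 nt between neighbours and at most 105 nt. Exon 1, with 87 cytosines, had no listed site in either library, and 12 of the 31 PPP2CA isoforms reached it. Exons 2 to 6 held 6, 4, 2, 4 and 3 sites in the RBFOX2 library and 0, 0, 0, 1 and 1 in the control. Exon 7, which holds the end of the coding sequence and the 3'UTR, had 25 and 2.

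The 3'UTR sites kept to its first part. All 22 of them in the RBFOX2 library lay between 13 and 629 nt after the stop codon, in an annotated 3'UTR of 3440 nt. The isoforms that entered the 3'UTR ended between 103 and 1507 nt after the stop codon, so most of the annotated 3'UTR had no isoform model in these data. The hexamer, 203 to 208 nt after the stop codon, was contained in 29 of the 31 isoforms. In SKP1, the hexamer with sites was contained in all 21 isoforms, and a more distal hexamer without a site was reached by 6 of them.

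**Figure D2:**
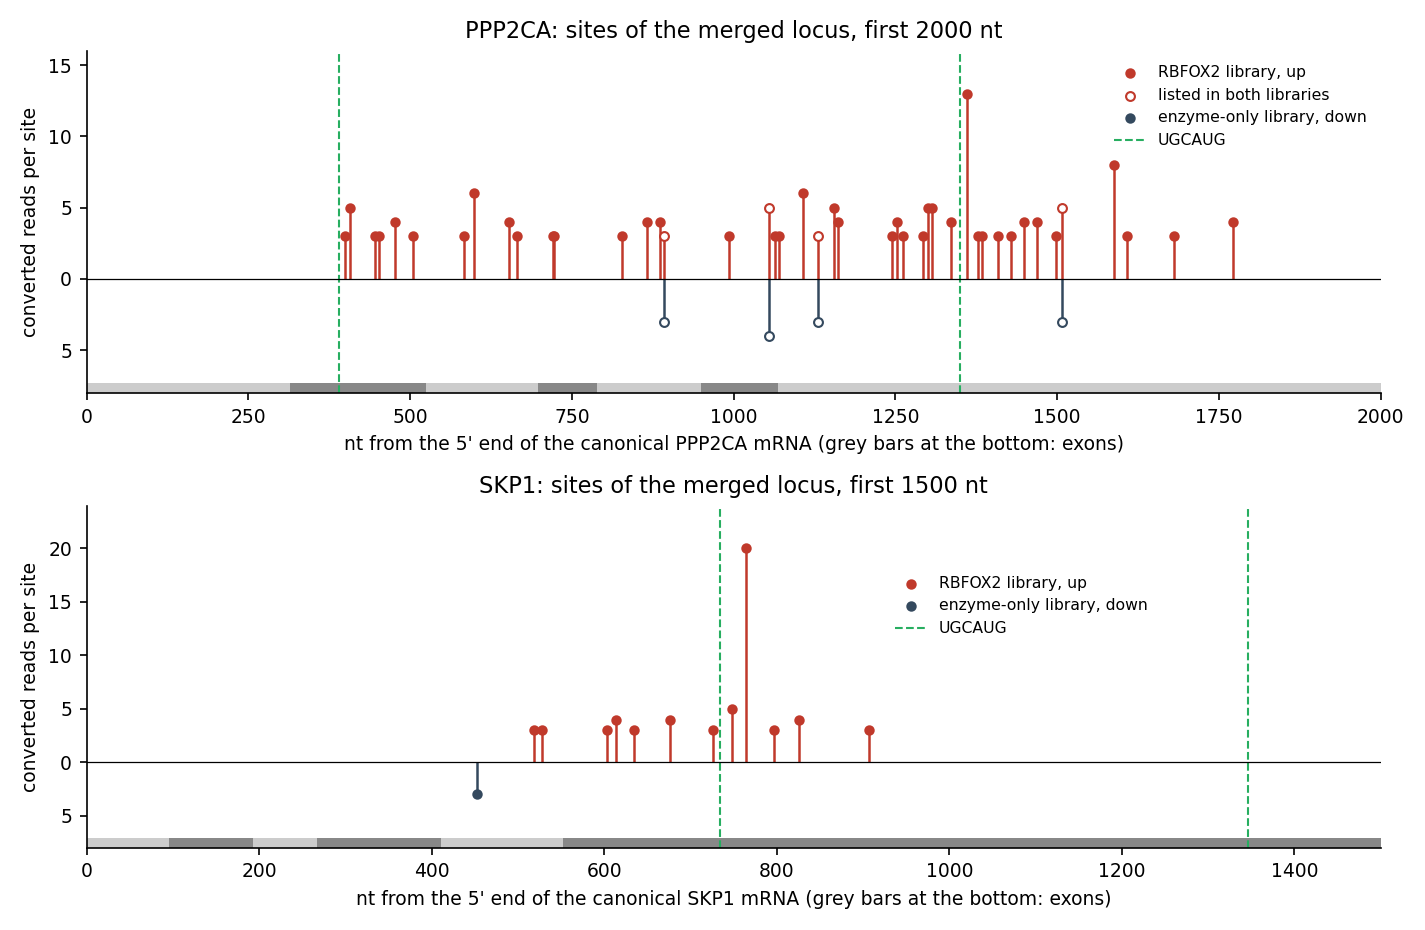
Converted reads per listed site (vertical axis) along the canonical PPP2CA messenger RNA (top) and SKP1 messenger RNA (bottom), in nt from the 5′ end. RBFOX2 sites point up, enzyme-only sites point down, open circles are sites listed in both libraries, dashed lines are UGCAUG hexamers and grey bars are exons. The tallest RBFOX2 sites, with 13 reads in PPP2CA and 20 in SKP1, stand 10 and 30 nt past a hexamer.

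The 4 PPP2CA sites listed in both libraries had similar counts in each. Position 134197406 in the 3'UTR had 5 converted reads with the RBFOX2 antibody and 3 in the control, and position 134199101 in coding exon 6 had 5 and 4. Positions 134197784 and 134200393, both coding, had 3 converted reads in each library. These were all the sites of the enzyme-only library in PPP2CA, and none was among the 3 strongest of the RBFOX2 library.

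PPP2CB (chr8:30774457-30814314, minus strand) encodes the beta form of the catalytic subunit. Over 309 codons the coding sequences of PPP2CA and PPP2CB had 83.2% of bases in common and their proteins differed at 8 residues. PPP2CB was far less covered, with 81 reads with the RBFOX2 antibody and 63 in the control. It listed 13 and 11 sites, none in common, at a log2 ratio of -0.03 (interval -1.30 to 1.28). All but 1 of these 24 sites had a single converted read, and the exception, with 2, was in the enzyme-only library.

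The paralogues share the UGCAUG of the coding sequence. It starts at base 173 of the coding sequence in both, in codon 58, and PPP2CA had 2 RBFOX2 sites within 50 nt of it while PPP2CB had none. One read was worth 1.23% of the PPP2CB reads in the RBFOX2 library. A count of 0 allowed a converted share of up to 3.70% where all 81 reads covered the position, and more where fewer did. Reads per position are not given. The longest PPP2CB isoform model contained the hexamer (30799680 to 30799685), while the next longest began at 30799650, downstream of it. The PPP2CA sites there had 0.216% and 0.360% of the reads of the joined model, so a share of that size in PPP2CB could be neither shown nor excluded by the absence of a listed site. Of the 22 coding positions listed in PPP2CA, 17 were also cytosines in PPP2CB, and 2 of these were listed there, at codons 78 and 124. Both were listed in the RBFOX2 library for PPP2CA and in the control for PPP2CB.

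PPP2R1A (chr19:52170936-52229518, plus strand) encodes the major form of the scaffold, on which the catalytic and regulatory subunits assemble. It is the closest match to the PPP2CA model in depth, with 1095 reads with the RBFOX2 antibody and 1068 in the control, and the same minimum of 3 converted reads. It listed 4 sites and 3 sites, 1 of them in common, all in the 3'UTR and all with 3 converted reads. Of its exonic cytosines, 0.431% were listed in the RBFOX2 library, against 4.16% at the PPP2CA model, and 0.323% and 0.371% in the enzyme-only library. The log2 ratio of its unshared sites was 0.22 (interval -2.80 to 3.90). One RBFOX2 site, position 52226108, lay within 50 nt of a UGCAUG, the last stretch printed above, and a second exonic hexamer of PPP2R1A had no site.

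PPP2R1B (chr11:111726908-111766389, minus strand) encodes the beta form of the scaffold. At 72 and 75 reads it listed 9 sites with the RBFOX2 antibody and 6 in the control, none in common and each with 1 converted read. The log2 ratio was 0.28 (interval -1.33 to 2.09). No site lay within 50 nt of its exonic UGCAUG.

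PPP2R2A (chr8:26291508-26372680, plus strand) encodes a B55 regulatory subunit, known for acting on mitotic substrates. It had 200 reads with the RBFOX2 antibody and 173 in the control, and 38 and 26 sites, 1 of them in common. The log2 ratio of unshared sites was 0.29 (interval -0.47 to 1.10). Of the RBFOX2 sites, 11 lay close together in an annotated intron, within 1256 nt on chromosome 8 (positions 26308957 to 26310212), in an exon of 1 of the 20 isoform models. They had 2 converted reads each except for 1 with 3, and no enzyme-only site lay there. Whether the same reads carried several of these sites is not known, and the intervals count each site as independent. Only 4 of these 11 had A or U directly upstream, the bases APOBEC1 prefers, while 6 had G. Without them the unshared counts were 26 and 25 and the log2 ratio was -0.21. One RBFOX2 site, position 26366346 with 1 converted read, lay within 50 nt of the exonic UGCAUG of PPP2R2A.

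PPP2R5C (chr14:101761709-101927989, plus strand) and PPP2R5E (chr14:63371364-63543377, minus strand) encode the gamma and epsilon B56 regulatory subunits. PPP2R5C had more sites in the enzyme-only library, with 15 in the RBFOX2 library at 249 reads and 23 in the control at 191 reads. The 4 sites in common, at positions 101883274, 101883485, 101901784 and 101906425, were synonymous coding changes with 1 converted read in each library. Its log2 ratio was -1.03 (interval -2.27 to 0.09). PPP2R5E had 8 sites at 117 reads and 2 sites at 111 reads, none in common and each with 1 converted read. Its log2 ratio was 1.50 (interval -0.59 to 5.01). The direction was opposite in these B56 genes, but both intervals included 0 and the difference was not tested.

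Apart from PPP2CA the intervals of all the members included 0. With at least 20 unshared sites required, 4 members could be set against all genes, and 1 (PPP2CA) was beyond 2-fold higher in the RBFOX2 library while 1 (PPP2R5C) was beyond 2-fold lower. Over all 3604 such genes, 16.8% were beyond 2-fold higher and 14.6% beyond 2-fold lower, with a median log2 ratio of 0.08. The 6 members other than PPP2CA together had 81 unshared sites with the RBFOX2 antibody and 65 in the control, a log2 ratio of 0.05 (interval -0.43 to 0.55). The minimum of converted reads was 1 for 5 of these 6 and 3 for PPP2R1A.

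**Figure D3:**
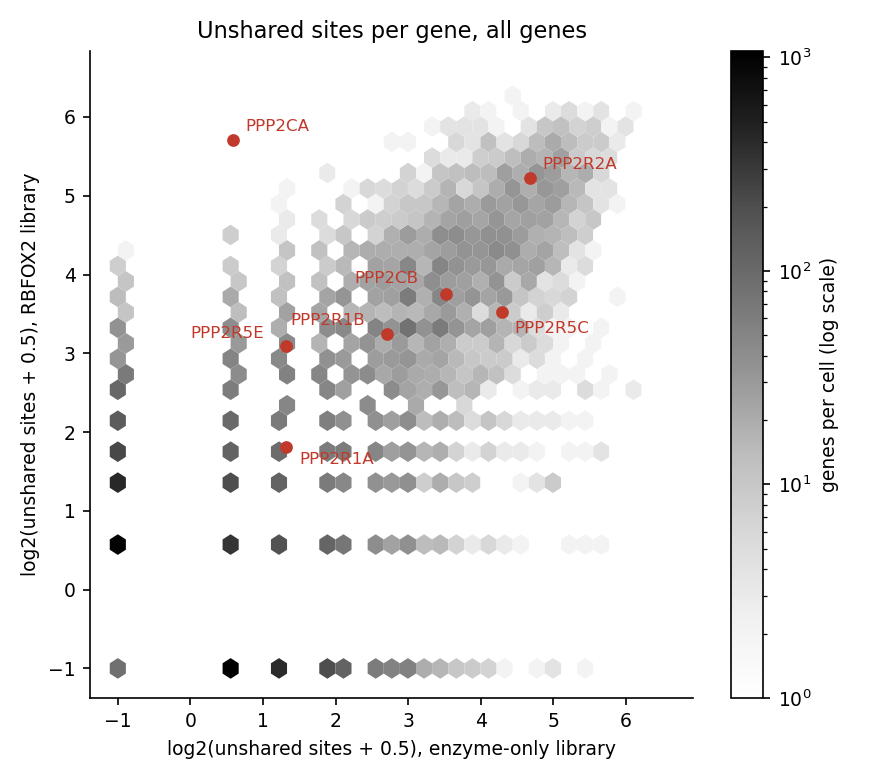
Unshared sites of every listed gene in the enzyme-only library (horizontal) and the RBFOX2 library (vertical), each as log2 of the count plus 0.5. Grey cells give the number of genes and red points the 7 PP2A genes. The PPP2CA point stands for the joined model with SKP1 and, with 52 sites against 1, lies above the main cloud, and PPP2CB and PPP2R2A lie within it.

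The sites were also set against the positions of UGCAUG. Of the unshared RBFOX2 sites at the PPP2CA model, 11 of 52 lay within 50 nt of a UGCAUG, or 21.2% (interval 11.1 to 34.7), against 6.02% of all exonic cytosines of the model. The PPP2CA exons alone gave 8 of 40 (interval 9.05% to 35.6%), with no background computed for them. The background of the model includes exons without a listed site, such as exon 1 of PPP2CA, and read coverage along the model was not taken into account. At the other 6 members the share was 2 of 81, or 2.47% (interval 0.300 to 8.64), against 2.44% of their exonic cytosines. Single converted reads left out, 17 of their sites remained and 1 of these lay there, or 5.88% (interval 0.149 to 28.7). This interval overlaps that of PPP2CA, and the intron sites of PPP2R2A made up 11 of the 17 sites. The PPP2CA sites had at least 3 converted reads each by the listing rule, and the difference between PPP2CA and the other members was not tested. Over all other genes of the series the share was 3.95% with the RBFOX2 antibody and 2.32% in the control. None of the 66 unshared enzyme-only sites of the 7 members lay near the hexamer, which allows a share of up to 4.55%. In all, the exons of the member models held 10 UGCAUG hexamers, 5 of which had an RBFOX2 site within 50 nt.

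APOBEC1 prefers A or U before the cytosine it converts. At the PPP2CA model 51 of 52 unshared RBFOX2 sites had A or U directly upstream, or 98.1% (interval 89.7 to 99.95), where 48.8% of exonic cytosines do, and in the PPP2CA exons alone 39 of 40 did, or 97.5%. At the other 6 members the share was 76.5% (interval 65.8 to 85.2) with the RBFOX2 antibody and 73.8% (interval 61.5 to 84.0) in the control, and 50.9% of their exonic cytosines had A or U there. All other genes gave 71.7% and 63.8%. Of the 17 RBFOX2 sites of the other members with at least 2 converted reads, 9 had A or U there, or 52.9% (interval 27.8 to 77.0), and the intron sites of PPP2R2A made up 11 of these 17. Within the PPP2CA exons 30 sites followed A, 13 followed U and 1 followed G. All unshared RBFOX2 sites at the PPP2CA model had at least 3 converted reads by the listing rule, whereas 21.0% of those of the other 6 members had at least 2, and the part of this difference in the shares was not tested.

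Coding sequence and 3'UTR shared the PPP2CA sites equally, with 22 each in the RBFOX2 library, and 3 and 1 in the control. Of the 22 coding sites, 12 were synonymous, 10 would change an amino acid and none would make a stop codon. Of the 191 cytosines in its coding sequence, 74 would give a synonymous change, 100 an amino acid change and 17 a stop codon. The coding site nearest the hexamer of exon 2 would give H63Y, and the strongest coding site that changes a residue would give H299Y. These are the changes that conversion of the cytosine would make in the canonical reading frame, not changes seen in protein.

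The other 6 members had 42 coding sites with the RBFOX2 antibody, each with a single converted read, and 45 in the control, 43 of them with a single read. PPP2R2A had 16 coding sites with the RBFOX2 antibody and 15 in the control, and PPP2R5C had 12 and 20. Conversions that would make a stop codon were listed in PPP2R5C at codon 258 with the RBFOX2 antibody and at codons 125 and 190 in the control, in PPP2R5E at codon 358 with the antibody and in PPP2R1B at codon 337 in the control. Over all 7 members 45.1% of the unshared RBFOX2 sites lay in a 3'UTR (interval 36.5 to 54.0) and 31.8% of the enzyme-only sites (interval 20.9 to 44.4), intervals that overlap. The PPP2CA model made up 31 of these 60 RBFOX2 sites, and without it the shares were 35.8% and 32.3%. All other genes gave 41.9% and 35.9%.

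The edited cytosines were also counted per isoform model, as the percent of the exonic cytosines of an isoform that were unshared sites. In the 31 PPP2CA isoforms this percent ranged from 5.84 to 14.4 with the RBFOX2 antibody, with a median of 10.3, and was 0 in the control in each. All listed control sites of PPP2CA were shared sites, and with shared sites kept the medians were 11.6 and 1.15. The lowest value belonged to an isoform that stopped before the 3'UTR. The 21 SKP1 isoforms had a median of 6.01 with the RBFOX2 antibody and 0.521 in the control. Isoforms share exons and the sites were not assigned to isoforms, so these values repeat the same sites and differ mainly in which exons they include.

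In percentage points, the isoform medians of the other members differed less between the libraries than those of PPP2CA. The medians were 5.61 and 3.68 for the 5 PPP2CB isoforms, 0.702 and 0.468 for the 14 PPP2R1A isoforms, and 1.58 and 0.979 for the 10 PPP2R1B isoforms, RBFOX2 first. For the 20 PPP2R2A isoforms they were 6.94 and 6.14, and the libraries overlapped over most of their range. PPP2R5C went the other way, with 2.86 and 4.73 and a lower value in the RBFOX2 library in 20 of 24 isoforms. PPP2R5E had 1.70 and 0.176, with a higher value in the RBFOX2 library in all 11 isoforms, which rested on 8 sites against 2.

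**Figure D4:**
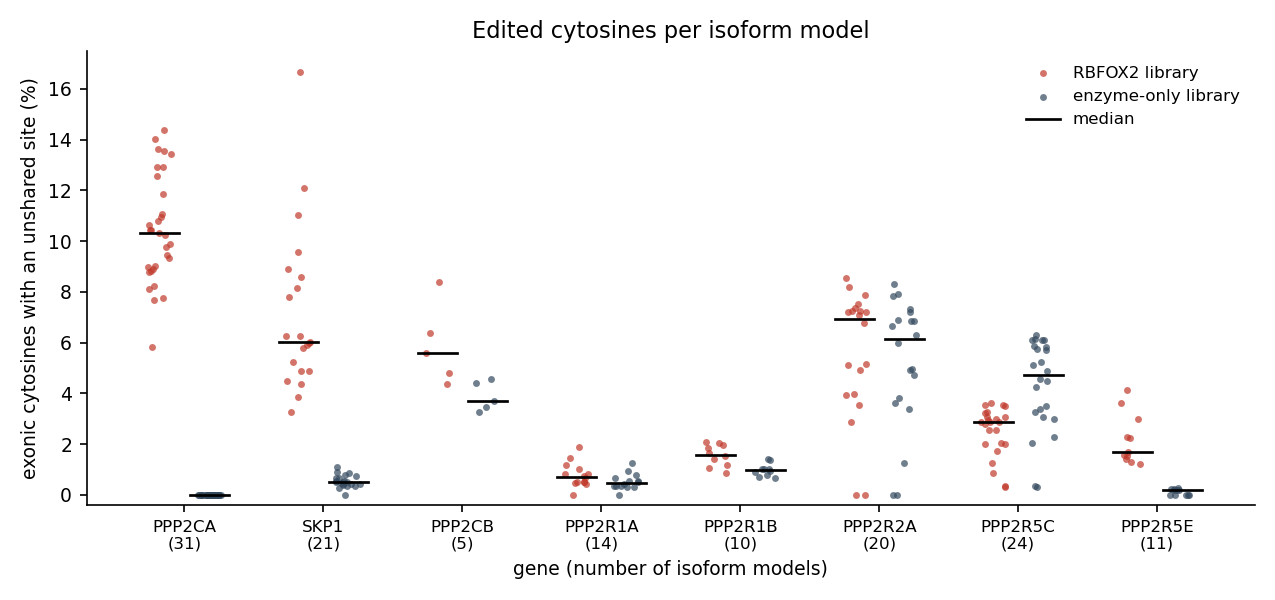
Percent of exonic cytosines that were unshared sites (vertical axis) for each isoform model, as a point, in the RBFOX2 library (red) and the enzyme-only library (blue), with black bars for medians. The number of isoforms stands under each gene. All PPP2CA isoforms lie at 5.84 or above with the RBFOX2 antibody and at 0 in the control, where every listed PPP2CA site was a shared site.

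A list of 32 other genes around PP2A was set beside the members. Of these, 26 had a listed site and 18 had at least 20 unshared sites, of which 3 were beyond 2-fold higher in the RBFOX2 library and 4 beyond 2-fold lower. Over all 3604 genes these shares were 16.8% and 14.6%. The 3 of 18 is close to the former and the 4 of 18 is above the latter, which was not tested. Of the unshared sites of the 18 genes, 29 of 466 lay within 50 nt of a UGCAUG in the RBFOX2 library, or 6.22%, and 16 of 365 in the control, or 4.38%. Such sites were found in 7 of the 18 genes with the RBFOX2 antibody and in 4 in the control. The counts, RBFOX2 first, were 6 and 3 in PPP5C, 5 and 2 in ARPP19, and 4 and 0 in each of PPP2R3C, CIP2A and PPP6C. PPP3CB had 3 and 2, and PPME1 had 3 and 9. Exonic sites of all genes other than the members gave shares of 3.95% and 2.32%. No background of exonic cytosines was computed for the 18 genes, and the difference from all genes was not tested. The median log2 ratio of the 18 genes was -0.23, against 0.08 over all 3604 genes.

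Among 12 further regulatory subunits, 5 had at least 20 unshared sites. PPP2R3C, a B'' regulatory subunit, had 45 unshared sites with the RBFOX2 antibody and 6 in the control at 98 and 84 reads, a log2 ratio of 2.54 (interval 1.41 to 4.16). Of these sites, 4 with the RBFOX2 antibody and 0 in the control lay within 50 nt of a UGCAUG. With at least 2 converted reads required, 6 and 0 sites of PPP2R3C remained. The B55 gene PPP2R2D had 8 and 20 unshared sites, each with a single converted read, a log2 ratio of -1.53 (interval -2.98 to -0.34). The B56 genes PPP2R5A and PPP2R5D had log2 ratios of -1.05 and -0.32, and STRN4, a striatin of the STRIPAK complex, had -0.62, and the intervals of these 3 genes included 0.

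Among 12 regulators and inhibitors, 7 had at least 20 unshared sites. ARPP19, an inhibitor of the B55 form when phosphorylated in mitosis, had 27 sites with the RBFOX2 antibody and 10 in the control, a log2 ratio of 1.13 (interval 0.08 to 2.38), at 107 and 74 reads. PTPA, an activator of the catalytic subunit, had 11 and 27 sites, a log2 ratio of -1.52 (interval -2.72 to -0.50). The intervals of the other 5 included 0. Their log2 ratios were 0.93 for IGBP1, which binds free catalytic subunits, 0.67 for the inhibitor CIP2A, -0.20 for TIPRL, -0.44 for the methylesterase PPME1 and -0.49 for PABIR1, an inhibitor of the B55 form.

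Among 8 relatives of the catalytic subunit, 6 had at least 20 unshared sites. PPP6C, the catalytic subunit of protein phosphatase 6, had 55 sites with the RBFOX2 antibody and 17 in the control, a log2 ratio of 1.40 (interval 0.62 to 2.31). PPP5C had 62 and 28 sites, a log2 ratio of 0.87 (interval 0.22 to 1.58), and PPP1CB, a catalytic subunit of protein phosphatase 1, had 23 and 46, a log2 ratio of -1.25 (interval -2.05 to -0.51). The model of PPP1CB also overlapped SPDYA. PPP1CA, PPP1CC and the calcineurin gene PPP3CB had log2 ratios of 0.30, 0.71 and -0.26, with intervals that included 0.

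**Figure D5:**
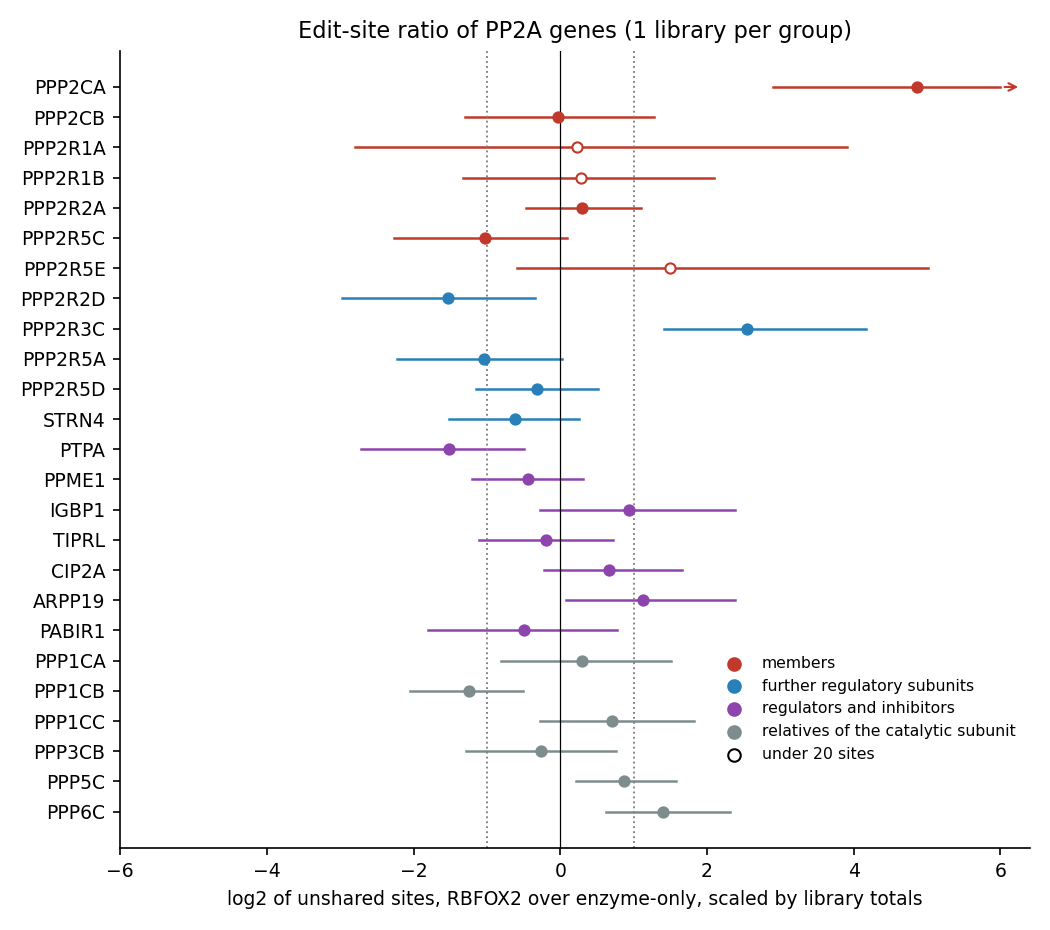
Log2 ratio of unshared sites (RBFOX2 over enzyme-only, scaled by library totals) for the 7 members and 18 other genes, with exact 95% intervals as lines. The 18 are the list genes with at least 20 unshared sites and include relatives of the catalytic subunit from other phosphatases. Dotted lines mark 2-fold, open points are members with under 20 sites, and the arrow marks an interval that runs past the axis. PPP2CA at 4.87 and PPP2R3C at 2.54 lie furthest to the right.

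The genes most like PPP2CA were sought among 107 other genes with the same minimum of 3 converted reads in each library, by the distance in log2(unshared sites + 0.5) over both libraries. For the joined model the nearest was RCN2 with 26 and 2 unshared sites, at a distance of 1.23, followed by JUN with 21 and 2, DDIT4 with 18 and 1, DEK with 25 and 3 and GNL3 with 22 and 3. In JUN 10 of the RBFOX2 sites lay within 50 nt of a UGCAUG, in DEK 7 and in GNL3 5, while RCN2 and DDIT4 had none. Over these 108 genes, PPP2CA included, the median was 5.5 unshared sites with the RBFOX2 antibody and 3 in the control. The PPP2CA model had the highest log2 ratio of the 108 and ranked 2 by its number of RBFOX2 sites. The PPP2CA exons alone, with 40 and 0 sites, had the same ranks.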

How the data were processed

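There was 1 RBFOX2 and 1 enzyme-only library, made with an Iso-Seq kit of PacBio per the labels. The study's methods name another library kit, so the versions and settings behind these tables are not given in the sources used here. The deposited site tables give, per site, a count of converted reads, a count of reads of the whole gene and an edit fraction, the first divided by the second. The deposited fractions were all above 0.002. A deposited confidence score was not used. Deposited isoform models gave exon positions only (genome build hg38, per the submitters' processing notes).

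Models were joined to GENCODE 44 with bedtools 2.31.1, and intervals came from scipy 1.17.1. A position with several annotations was read as coding before 3'UTR, and as intron only where it fell in no annotated exon. UGCAUG was searched on the transcribed strand of the genome, across introns. Hexamers were counted in exons where all their bases lay in an isoform model. The ratio calculation was tested on simulated site tables. The members and gene lists were chosen with earlier results of these data known. Named were the 7 members, list genes with at least 20 unshared sites, the 5 genes most like PPP2CA, and within members the 5 RBFOX2 and 3 enzyme-only sites with the most reads, shared sites and those near UGCAUG, as far as these stood apart from ties. No p-value was computed with 1 library per group. Alternatives covered shared sites, the minimum of converted reads, pseudocount, scaling, window, motif and region order.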

Additional observations from a re-analysis of the deposited data

How the results depend on the processing

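The log2 ratio of PPP2CA stayed between 3.13 (shared sites kept) and 5.01 (scaled by gene reads) under the alternatives that keep SKP1. Of 35 ratios of the members that could be recomputed, 32 stayed within their counting intervals. PPP2R1B and PPP2R5E gave no ratio with at least 2 converted reads required, since each of their sites had 1 converted read. With at least 2 converted reads required, PPP2CB gave -2.45 (0 and 1 sites), PPP2R5C -3.18 (0 and 2) and PPP2R2A 3.996 (14 and 0), where 11 of the 14 were its intron sites. PPP2R2D and PPP3CB had no unshared site with at least 2 converted reads and also gave no ratio. Of the 21 ratios that could be recomputed, 6 turned direction under that minimum. These were PPP2R1A at -0.38 (3 and 2), PPP2R5A at 0.72 (1 and 0), STRN4 at 1.95 (3 and 0), PABIR1 at 0.72 (1 and 0), PPP1CA at -0.30 (18 and 12) and PPP5C at -0.38 (3 and 2). PPP2R1A and PPP1CA kept the same site counts, and their ratios turned only because the library totals were recomputed under that minimum. PTPA gave -3.18 (0 and 2) and PPME1 -2.45 (0 and 1). PPP2R3C kept 6 and 0 sites, ARPP19 4 and 0, PPP6C 13 and 1 and PPP1CB 2 and 4. The RBFOX2 motif share of the members was 5.26% within 20 nt, 28.6% within 200 nt and 17.4% of sites with at least 2 converted reads, and the enzyme-only share within 200 nt was 7.58%. Of the 6 enzyme-only sites with at least 2 converted reads, 100% had A or U upstream and 50% lay in a 3'UTR. With 3'UTR taken before coding sequence, the 3'UTR shares were 69.2% and 54.5%, since many coding positions are also 3'UTR in another annotated transcript. With shared sites kept, the median percent of edited cytosines of the PPP2CA isoforms in the enzyme-only library was 1.15. With at least 50 sites required, 6 list genes remained, of which 2 were beyond 2-fold higher and 1 beyond 2-fold lower. Leaving out the SKP1 exons and the intron sites of PPP2R2A were alternatives chosen after the data were seen. No paired analysis was possible because each group has 1 library. Depth limits the members other than PPP2CA and PPP2R1A, where 1 read was 0.402% to 1.59% of the gene's reads.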
